A study of Homo sapiens with 12 samples.

Results

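The thioredoxin and peroxiredoxin genes described here are 10 genes, TXN, TXN2, TXNRD1, TXNRD2, SRXN1, PRDX1, PRDX2, PRDX3, PRDX5 and PRDX6, chosen by symbol from the 61510 gene rows of a count table and a matching FPKM table. Their RNA was sequenced in A549/DDP cells, which derive from the human lung adenocarcinoma line A549, resist cisplatin and were kept with 1 µg/ml cisplatin (DDP) in the medium. The 12 libraries form 4 groups of 3: shNRF2 cells with GNA, shNRF2 cells with DMSO, shNC cells with GNA and shNC cells with DMSO. shNRF2 cells carry a hairpin against NRF2 and shNC cells a control hairpin, and every group therefore carries a hairpin and shares the resistant background. GNA is gambogenic acid, given at 4 µM for 24 h from 70% confluence, and DMSO is its vehicle. The labels do not say whether a hairpin line is a clone or a pool, how many hairpins were used, or whether each replicate was its own culture. The p-values therefore reflect library-to-library spread, which may be technical. Single-cell sequencing named in the series was not analysed here.

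Thioredoxins are small proteins that reduce disulfides in other proteins, and thioredoxin reductases, which are selenoproteins, restore them with electrons from NADPH. Most peroxiredoxins use those electrons to break down peroxides, and sulfiredoxin repairs some peroxiredoxins whose catalytic cysteine has been over-oxidised. NRF2, encoded by NFE2L2, is a transcription factor that binds antioxidant response elements and is known to drive several of these genes, and A549 cells are known for high NRF2 activity.

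The promoter of TXNRD1 is shown because TXNRD1 was the only one of the 7 members with RefSeq promoter windows to hold the antioxidant response element core, searched as TGACNNNGC on both strands. The 250 bases before its start site lie at chr12:104215529-104215778 on the plus strand of GRCh38.p14 and hold no base of a GENCODE 29 exon of the gene. Capitals mark the match that lies wholly inside these bases.
TXNRD1 promoter: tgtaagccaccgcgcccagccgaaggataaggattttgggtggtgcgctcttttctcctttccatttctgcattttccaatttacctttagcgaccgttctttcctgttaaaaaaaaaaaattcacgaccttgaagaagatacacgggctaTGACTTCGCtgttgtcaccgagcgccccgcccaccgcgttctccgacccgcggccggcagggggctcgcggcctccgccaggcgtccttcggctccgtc
The capitals run from -99 to -91 relative to the start site, and a reverse-strand match, GCTCCGTCA, runs from -8 to 1. Windows of 300 bases, 250 before and 50 after a start, were on hand for 7 of the 10 members, 11 windows in all, and those of TXN2, PRDX1 and PRDX6 were not among them. The core was in 2 of the 11 windows, both of TXNRD1, a count near the share of 13.3% over all 34943 windows. In the other TXNRD1 window, all 250 bases before the start lie in GENCODE 29 exons of the gene. The stringent form TGACTCAGC was in 0.564% of all windows and in 0 of the 11. The heat shock element, searched as 3 alternating GAA units on both strands, was in 0.478% of all windows and in 0 of the 11. A match describes these letters only.

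Library totals ran from 12848607 to 17192671 counts, and replicates of a group differed by more than sampling noise (chi-square over its degrees of freedom, 2.24 to 7.58). Replicate 1 of shNC DMSO stood farthest from its own group. The epithelial keratins KRT8 and KRT18 made up most of an epithelial marker sum of 9460 to 9930 CPM in shNRF2 GNA, 15300 to 15900 in shNRF2 DMSO, 9740 to 10000 in shNC GNA and 15600 to 16500 in shNC DMSO libraries. Alveolar type 2 markers summed to at most 0.482 CPM, leukocyte markers to at most 0.792 CPM and endothelial markers to at most 0.66 CPM. Fibroblast markers summed to 7.13 to 9.96 CPM over all groups. One of them, LUM, was lower with GNA in shNRF2 and shNC cells (log2 -1.34 and -0.81, edgeR adjusted p = 0.0018 and 0.024) and with the hairpin under GNA (-1.04, adjusted p = 0.019). Within the epithelial list, KRT8 and KRT18 fell with GNA in both lines. KRT19 of that list had 0 to 2 counts and failed the filter, and EPCAM held 1.99 to 3.6 CPM over all groups. CDH1 was higher with GNA in shNC cells (0.46, adjusted p = 7.2e-05) and with the hairpin under GNA (0.56, adjusted p = 2.8e-06) and in DMSO (0.95, adjusted p = 4.2e-10). The part of these marker changes in the members' results was not tested. CPM here is the count scaled to a TMM-adjusted library total, the usual normalised read count. NFE2L2 averaged 45.77 ± 2.0 CPM in shNRF2 GNA, 50.17 ± 2.8 in shNRF2 DMSO, 87.41 ± 3.85 in shNC GNA and 77.94 ± 3.6 in shNC DMSO libraries (SD, n = 3 each). The hairpin target was thus at 52.4% of its shNC level under GNA (edgeR adjusted p = 9e-12) and at 64.3% under DMSO (adjusted p = 1.2e-08). In bulk RNA, fewer cells of a type and less RNA per cell cannot be told apart.

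By FPKM, which divides counts by a fixed gene length, the members spanned a wide range of levels. Their order depends on that length. In CPM, TXNRD1 averaged 1698 and PRDX5 352 in shNRF2 GNA libraries. In shNRF2 GNA libraries PRDX5 led with a mean of 423 FPKM, ahead of TXNRD1 at 261, PRDX1 at 81.3, TXN at 53.0, PRDX6 at 30.2, PRDX3 at 14.6 and TXN2 at 6.23 FPKM. TXNRD2 and SRXN1 followed at 0.978 and 0.633 FPKM, with overlapping libraries. In shNC DMSO libraries TXNRD1 came first at 394 FPKM and PRDX5 second at 351, and these overlapped, as did PRDX1 at 166 and TXN at 141 FPKM. By FPKM, PRDX5 was thus the highest member in both shNRF2 groups, where TXNRD1 was second without overlap. In shNC GNA libraries TXNRD1 was first, at 460 FPKM, without overlapping PRDX5 at 400 FPKM.

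**Figure D1:**
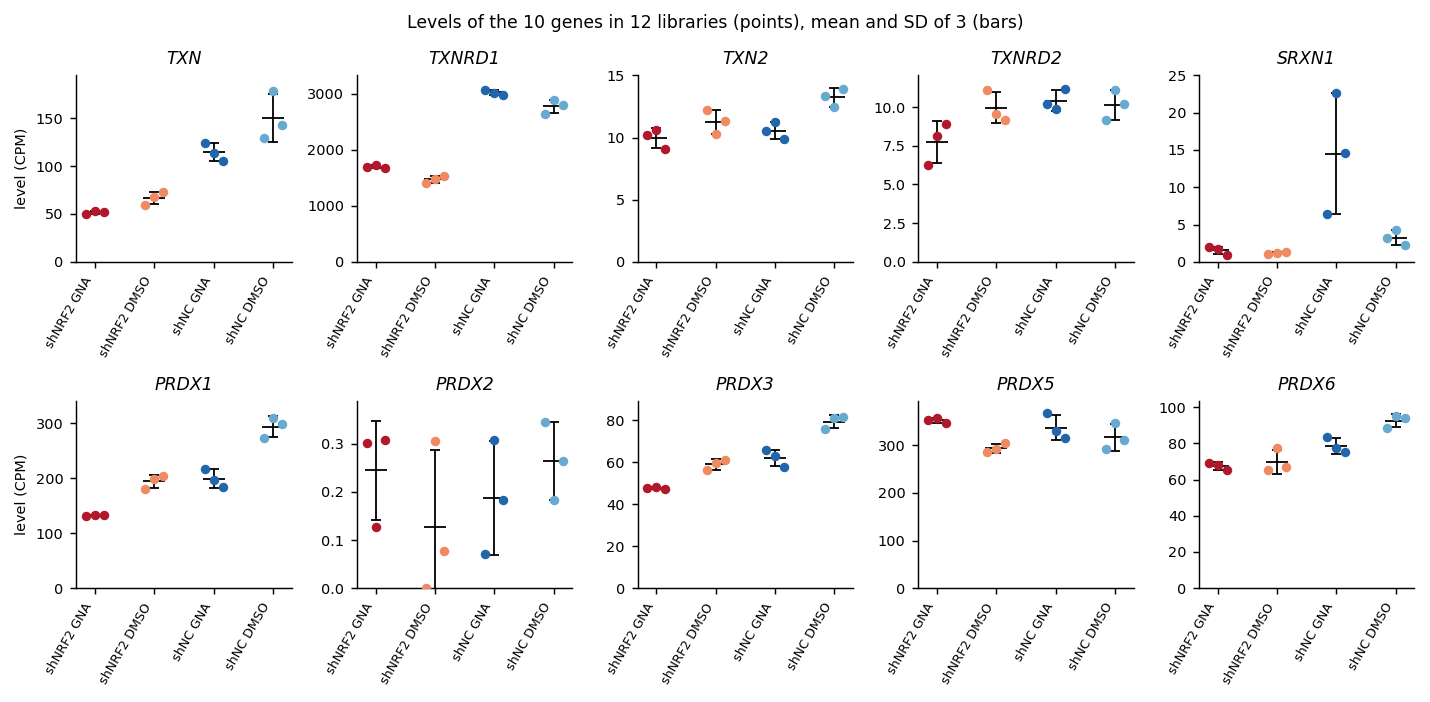
Levels of the 10 genes in CPM on a linear axis from 0, with 1 point per library and bars for the mean and SD of 3. TXN and TXNRD1 libraries lie lower in both shNRF2 groups than in both shNC groups, SRXN1 is high and scattered in shNC GNA, and PRDX2 stays at 0 to 5 counts.

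Set against the control hairpin, the NRF2 hairpin lowered 6 of the 9 tested members in DMSO and raised 0, where 18.3% of the 15653 genes tested were called lower and 16.8% higher. Under GNA it lowered 7 and raised 0, where 13.3% of genes were called lower and 12.8% higher. Libraries of the compared groups did not overlap for 7 members lower and 0 higher under GNA, against 19.7% of all genes lower and 21.2% higher. In DMSO this held for 7 lower and 0 higher, against 21.9% of all genes lower and 21.3% higher. A call is an edgeR adjusted p under 0.05, adjusted over all genes tested. The median log2 fold change of the 9 members was -0.416 under GNA and -0.43 in DMSO, against 0.013 and 0.011 over all genes tested. PRDX2 did not pass the filter on low counts and is described below.

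GNA, set against DMSO, lowered 3 and raised 2 of the 9 members in shNRF2 cells, where 17% of all genes were called lower and 16.7% higher. In shNC cells it lowered 5 and raised 2, where 16.1% were called lower and 14.6% higher. Groups did not overlap for 4 members lower and 2 higher in shNRF2 cells, against 22.1% and 22.8% of all genes. In shNC cells this was 5 lower and 2 higher, against 20.2% and 20.5% of all genes. Members' medians were -0.183 in shNRF2 and -0.236 in shNC cells, against 0.0098 and 0.017 over all genes tested. The 4 comparisons share libraries pairwise, so their values are given side by side.

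**Figure D2:**
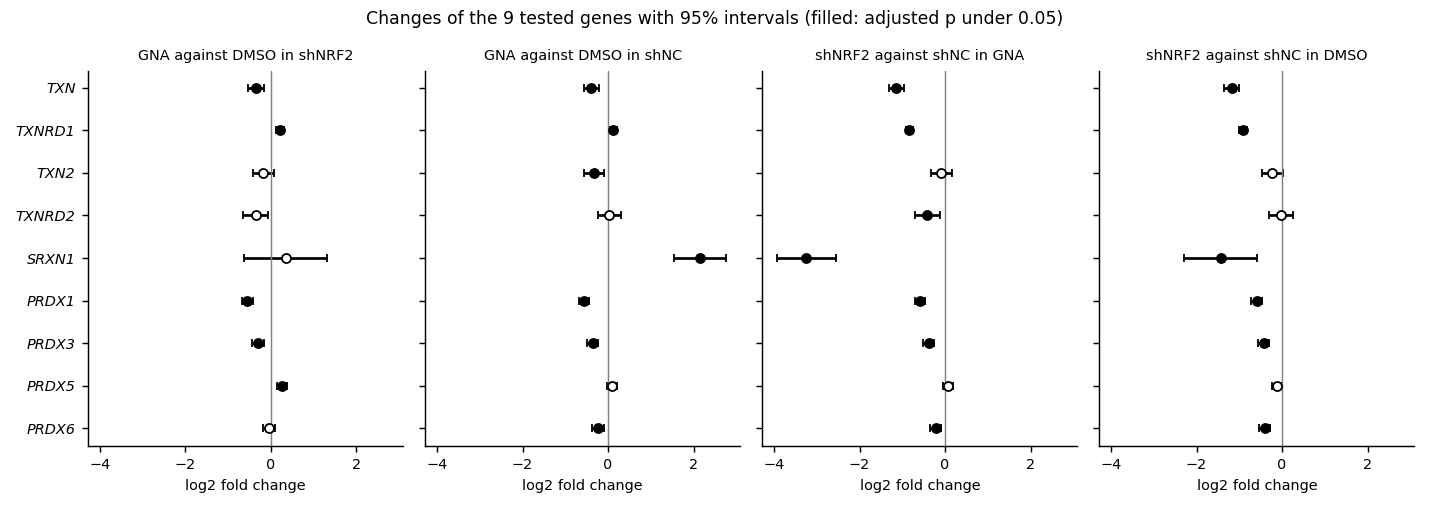
Log2 fold changes of the 9 tested members with 95% intervals in 4 comparisons, filled where the edgeR adjusted p is under 0.05 and open otherwise. TXN, TXNRD1, SRXN1, PRDX1, PRDX3 and PRDX6 are filled and lie left of 0 in both hairpin comparisons. The same holds for TXN, PRDX1 and PRDX3 in both GNA comparisons.

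TXN encodes the cytosolic thioredoxin (ENSG00000136810, GRCh38 chromosome 9, 110243811 to 110256640, minus strand). It stood at 50.1, 53.2 and 52.1 CPM in shNRF2 GNA libraries and at 59.8, 67.3 and 72.7 CPM in shNRF2 DMSO libraries. In shNC cells it stood at 123.9, 114.1 and 105.5 CPM with GNA and at 129.5, 178.0 and 142.9 CPM with DMSO. Every shNRF2 library was below every shNC library, and every GNA library was below every DMSO library of its own line. The hairpin lowered TXN by a log2 fold change of -1.14 ± 0.0888 (SE) under GNA and -1.18 ± 0.087 in DMSO, to 45.3% and 44.2% of shNC (edgeR adjusted p = 1.2e-10 and 3.7e-11). GNA changed it by -0.36 in shNRF2 and -0.39 in shNC cells (adjusted p = 0.003 and 0.00062). With limma on log2(FPKM + 1) or log2(FPKM + 0.1), the shNC call was lost (adjusted p = 0.063 and 0.062).

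TXNRD1 encodes the cytosolic thioredoxin reductase (ENSG00000198431, chromosome 12, 104215779 to 104350305, plus strand) and is the gene whose promoter is shown above. Its libraries held 1696.4, 1723.9 and 1673.5 CPM in shNRF2 GNA and 1407.1, 1483.4 and 1532.5 CPM in shNRF2 DMSO. They held 3068.3, 3015.6 and 2980.8 CPM in shNC GNA and 2643.7, 2877.6 and 2805.1 CPM in shNC DMSO. The groups did not overlap in any of the 4 comparisons, lower with the hairpin and higher with GNA. The hairpin took TXNRD1 to 56.2% of shNC under GNA (log2 -0.83 ± 0.0433, adjusted p = 2.8e-14) and 53.1% in DMSO (log2 -0.91 ± 0.0434, adjusted p = 4e-15). The GNA rise was small, at log2 0.20 ± 0.0432 in shNRF2 (adjusted p = 0.00049) and 0.12 ± 0.043 in shNC cells (adjusted p = 0.031). The shNC call was lost with only the groups compared in the fit (0.06) and on leaving out replicate 1 (0.12) or 3 (0.055) of shNC DMSO, replicate 1 (0.079) or 2 (0.077) of shNC GNA, or replicate 2 (0.051) of shNRF2 DMSO.

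The FPKM ratio of TXNRD1 to TXN within a library was higher with GNA in both lines. It averaged 4.93 ± 0.14 in shNRF2 GNA, 3.34 ± 0.19 in shNRF2 DMSO, 3.99 ± 0.26 in shNC GNA and 2.82 ± 0.34 in shNC DMSO libraries (SD, n = 3 each). No GNA library overlapped a DMSO library of its line, and no shNRF2 library overlapped a shNC library of its treatment. Each of these 4 comparisons gave an exact two-sided permutation p of 0.1, the smallest that 3 libraries against 3 allow, and 0.13 after Benjamini-Hochberg adjustment over the 32 comparisons of 8 ratios and sums, which were chosen after the levels were seen.

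TXN2, the mitochondrial thioredoxin (ENSG00000100348, chromosome 22, 36467036 to 36482030, minus strand), had 10.2, 10.6 and 9.0 CPM in shNRF2 GNA and 12.2, 10.3 and 11.3 CPM in shNRF2 DMSO libraries. In shNC cells it had 10.5, 11.2 and 9.9 CPM with GNA and 13.3, 12.5 and 13.9 CPM with DMSO. The shNC GNA libraries were all below the shNC DMSO libraries, and the shNRF2 groups overlapped. GNA lowered TXN2 in shNC cells (log2 -0.33 ± 0.116, adjusted p = 0.033), but 9 of 23 alternatives lost that call, among them those that left out replicate 1 or 3 of shNC DMSO, or replicate 1 or 3 of shNC GNA (adjusted p from 0.031 to 0.14 over the 23). The hairpin change was -0.08 under GNA and -0.23 in DMSO (adjusted p = 0.66 and 0.14).

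TXNRD2, the mitochondrial reductase (ENSG00000184470, chromosome 22, 19875517 to 19941992, minus strand), had 6.3, 8.1 and 8.9 CPM in shNRF2 GNA and 11.1, 9.6 and 9.2 CPM in shNRF2 DMSO libraries. In shNC cells it had 10.2, 9.9 and 11.2 CPM with GNA and 9.2, 11.1 and 10.2 CPM with DMSO. The shNRF2 GNA group lay below the other groups, which overlapped one another. The hairpin lowered TXNRD2 under GNA (log2 -0.42 ± 0.14, adjusted p = 0.027) and its DMSO change was -0.03 (adjusted p = 0.91). The call under GNA was lost in 6 of 23 alternatives, including without shNRF2 GNA replicate 1 (0.16) or 2 (0.05) and shNC GNA replicate 1 (0.05) or 3 (0.11). The GNA change in shNRF2 cells was -0.35 ± 0.142 (adjusted p = 0.055), called with DESeq2 size factors in edgeR (0.049) and without shNRF2 GNA replicate 3 (0.029), and that response minus the shNC one was -0.39 (adjusted p = 0.27).

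SRXN1 encodes sulfiredoxin (ENSG00000271303, chromosome 20, 646615 to 653370, minus strand) and had the widest spread of the tested members. It had 26, 27 and 16 counts in shNRF2 GNA libraries and 16, 16 and 18 in shNRF2 DMSO libraries, or 1.96, 1.71 and 0.985 CPM and 1.03, 1.22 and 1.38 CPM. In shNC GNA libraries it had 89, 366 and 237 counts, or 6.41, 22.6 and 14.5 CPM. In shNC DMSO libraries it had 47, 70 and 34 counts, or 3.24, 4.29 and 2.24 CPM. All 3 shNC GNA libraries were above the other 9, while the shNRF2 groups overlapped. The exact 95% Poisson intervals in shNC GNA, 5.14 to 7.88, 20.3 to 25 and 12.8 to 16.5 CPM, were separate from one another, and such intervals cover counting error only.

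The highest shNC GNA library held 3.52 times the lowest, and 2.4% of the 15653 tested genes were at least as wide in that group. Among the 10031 genes averaging at least 5 CPM there, 10 were at least as wide, or 0.0997%, SRXN1 included. The same ratio was 1.99 in shNRF2 GNA, 1.34 in shNRF2 DMSO and 1.91 in shNC DMSO. Its biological coefficient of variation was 24%, against a trend of 12.1% at its level and a median of 8.73% over tested genes. In GENCODE 29, 85% of its exonic bases are also exonic, on the same strand, in AL121758.1 (ENSG00000270299), whose own row held 0 to 11 counts. How the counting treated such shared reads is not given in the sources used here, and their part in the spread was not tested.

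**Figure D3:**
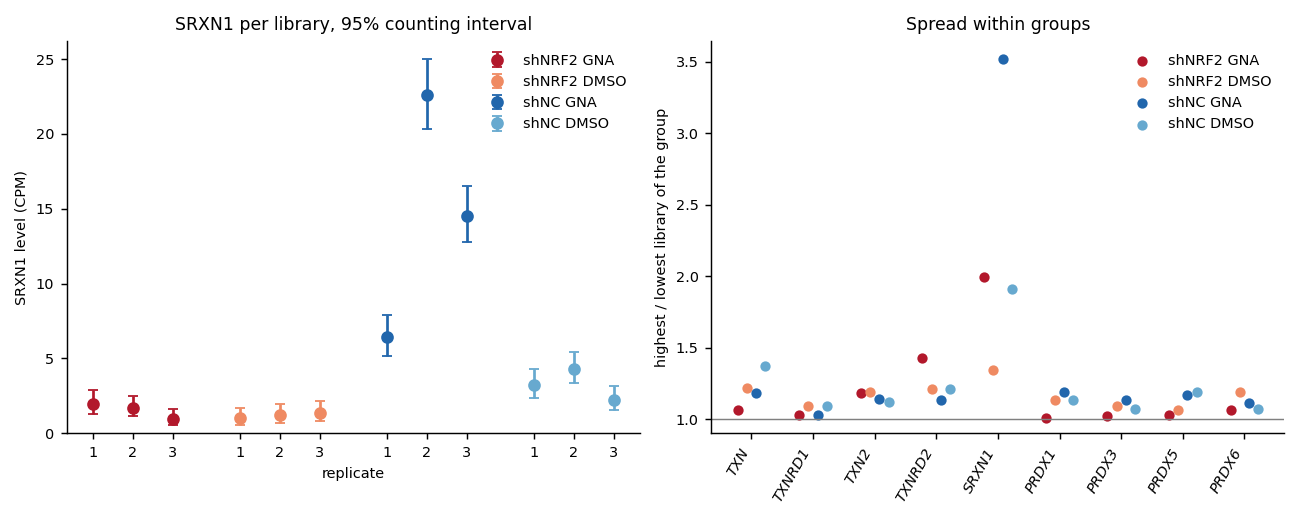
Left, SRXN1 in CPM per library with exact 95% Poisson intervals for counting error. Right, the highest library over the lowest within each group for the 9 tested members, on an axis that starts below 1, where SRXN1 in shNC GNA reaches 3.52.

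Against that spread, GNA raised SRXN1 4.45-fold in shNC cells (log2 2.16 ± 0.296, 95% interval 1.55 to 2.76, adjusted p = 2.4e-06), and this call held in all 23 alternatives, with log2 values from 1.52 to 2.50. In shNRF2 cells the change was 0.35 ± 0.471 with an interval of -0.623 to 1.32 (adjusted p = 0.62). The hairpin took SRXN1 to 10.5% of shNC under GNA (log2 -3.25 ± 0.334, adjusted p = 2.4e-08) and to 36.9% in DMSO (log2 -1.44 ± 0.414, adjusted p = 0.0079). The DMSO call was lost without shNC DMSO replicate 2 (0.056) and with limma on log2(FPKM + 1) (0.14).

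The difference of the GNA response, shNRF2 minus shNC, was called for 0 of the 9 members in edgeR, where 3.24% of genes were called lower and 3.58% higher. At an unadjusted p under 0.05 it was 2 of 9, SRXN1 and PRDX5, against 20% of all genes. For SRXN1 it was -1.81 ± 0.571 (interval -2.98 to -0.634, adjusted p = 0.055). SRXN1 passed the threshold without shNC GNA replicate 1 (0.0015), without shNC DMSO replicate 2 (0.04), with no filter (5.6e-05) and with the replicate number as a block (0.026), and the range over 22 alternatives was 5.6e-05 to 0.14. For PRDX5 it was 0.17 ± 0.0821 (adjusted p = 0.23).

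PRDX1 and PRDX3, like TXN, fell in all 4 comparisons. PRDX1, an abundant cytosolic peroxiredoxin (ENSG00000117450, chromosome 1, 45511036 to 45523047, minus strand), had 131.5, 132.4 and 133.2 CPM in shNRF2 GNA and 181.0, 197.8 and 204.3 CPM in shNRF2 DMSO libraries. In shNC cells it had 217.4, 197.0 and 183.4 CPM with GNA and 272.9, 309.3 and 298.3 CPM with DMSO. The shNRF2 GNA libraries were lowest and the shNC DMSO libraries highest, with no overlap in any comparison of the design. The hairpin changed PRDX1 by -0.59 under GNA and -0.60 in DMSO (adjusted p = 2.5e-08 and 1.1e-08). GNA changed it by -0.55 in shNRF2 and -0.56 in shNC cells (adjusted p = 4.2e-08 and 3.7e-08), and the difference of those responses was 0.01, with an interval of -0.169 to 0.181. Of its exonic bases, 24.9% overlap MMACHC on the opposite strand, whose row held 32 to 67 counts.

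PRDX3, the mitochondrial peroxiredoxin (ENSG00000165672, chromosome 10, 119167703 to 119178833, minus strand), had 47.8, 48.0 and 47.2 CPM in shNRF2 GNA and 56.1, 59.8 and 61.1 CPM in shNRF2 DMSO libraries. The shNC libraries had 65.6, 62.9 and 57.9 CPM with GNA and 75.9, 80.9 and 81.4 CPM with DMSO. These groups too did not overlap in any of the 4 comparisons. The hairpin changes were -0.38 under GNA and -0.43 in DMSO (adjusted p = 4.7e-05 and 4.3e-06), and the GNA changes -0.31 in shNRF2 and -0.36 in shNC cells (adjusted p = 0.00046 and 6e-05). Over the 12 libraries, which fall into the 4 groups, log2 levels of PRDX1 and PRDX3 had a Pearson r of 0.995, the highest of any pair of tested members.

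PRDX5 behaved differently. This peroxiredoxin of mitochondria, peroxisomes and cytosol (ENSG00000126432, chromosome 11, 64318088 to 64321811, plus strand) had 353.2, 356.4 and 346.6 CPM in shNRF2 GNA and 285.8, 291.3 and 303.9 CPM in shNRF2 DMSO libraries. The shNC values were 366.8, 329.3 and 314.6 CPM with GNA and 292.2, 347.6 and 310.7 CPM with DMSO. GNA libraries were above DMSO libraries in shNRF2 cells and overlapped them in shNC cells. GNA raised PRDX5 in shNRF2 cells (log2 0.26 ± 0.0582, adjusted p = 0.00081), and its change in shNC cells was 0.09 (adjusted p = 0.27). The shNC change was called under library-total scaling (0.01), with limma on log2(FPKM + 1) or + 0.1 (0.044 and 0.043) and without shNC DMSO replicate 2 (0.044). The hairpin changes were 0.06 under GNA and -0.11 in DMSO (adjusted p = 0.46 and 0.15), and the DMSO one was called without shNC DMSO replicate 1 (0.022).

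PRDX6, a peroxiredoxin with a single catalytic cysteine (ENSG00000117592, chromosome 1, 173477266 to 173488807, plus strand), had 69.2, 68.2 and 65.1 CPM in shNRF2 GNA and 65.2, 77.3 and 66.8 CPM in shNRF2 DMSO libraries. Its shNC libraries held 83.6, 77.2 and 75.2 CPM with GNA and 88.6, 95.02 and 94.0 CPM with DMSO. The shNRF2 groups overlapped, and shNC GNA lay below shNC DMSO. The hairpin lowered PRDX6 under GNA (log2 -0.22, adjusted p = 0.013) and in DMSO (-0.41, adjusted p = 1.6e-05). GNA lowered it in shNC cells (-0.24, adjusted p = 0.0062), and its change in shNRF2 cells was -0.05 (adjusted p = 0.64). The hairpin call under GNA was lost without shNC GNA replicate 1 (0.078) or shNRF2 GNA replicate 3 (0.074), and the GNA call in shNC cells with library-total scaling (0.12) and with limma (0.14 at either pseudocount).

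PRDX2, another cytosolic peroxiredoxin (ENSG00000167815, chromosome 19, 12796820 to 12801859, minus strand), was barely counted. It had 4, 2 and 5 counts in shNRF2 GNA, 0, 4 and 1 in shNRF2 DMSO, 1, 5 and 3 in shNC GNA and 5, 3 and 4 in shNC DMSO libraries. These lie around the 3 counts that a count of 0 allows, and no difference between groups was detectable at such low counts. RNASEH2A, a nearby gene on chromosome 19 named here after its values were seen, held 0 to 4 counts. PRDX2 and RNASEH2A both lie inside the annotated span of HOOK2, whose row held 625 to 1015 counts. PRDX2 shares 0 exonic bases with HOOK2. Whether reads of PRDX2 or RNASEH2A were lost in counting was not tested.

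As shares of the summed FPKM of the 5 peroxiredoxins listed, PRDX5 took 77.0 ± 0.2% in shNRF2 GNA, 67.7 ± 0.95% in shNRF2 DMSO, 69.6 ± 0.26% in shNC GNA and 60.7 ± 1.1% in shNC DMSO libraries (SD, n = 3 each). PRDX1 took 14.8 ± 0.23%, 22.9 ± 0.61%, 21.0 ± 0.21% and 28.8 ± 0.6% in those same groups, named in that order. PRDX4 was not in the sum and averaged 16.73, 21.15, 19.89 and 22.94 FPKM in the same order. The PRDX5 share was higher and the PRDX1 share lower with GNA and with the hairpin, with no overlap in any of the 4 comparisons. Each gave an exact two-sided permutation p of 0.1, the smallest possible here, and 0.13 after Benjamini-Hochberg adjustment over the 32 comparisons. Both are shares of 1 sum, so they do not move independently. Their sizes depend on the fixed gene lengths in FPKM. In CPM, PRDX5 and PRDX1 averaged 352 and 132.4 in shNRF2 GNA and 316.8 and 293.5 in shNC DMSO libraries. PRDX2 averaged at most 0.125 FPKM in any group and added little to the sum. PRDX5 itself had no edgeR call with the hairpin, or with GNA in shNC cells. The sum averaged 549 FPKM in shNRF2 GNA, 499 in shNRF2 DMSO, 575 in shNC GNA and 577 in shNC DMSO libraries.

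**Figure D4:**
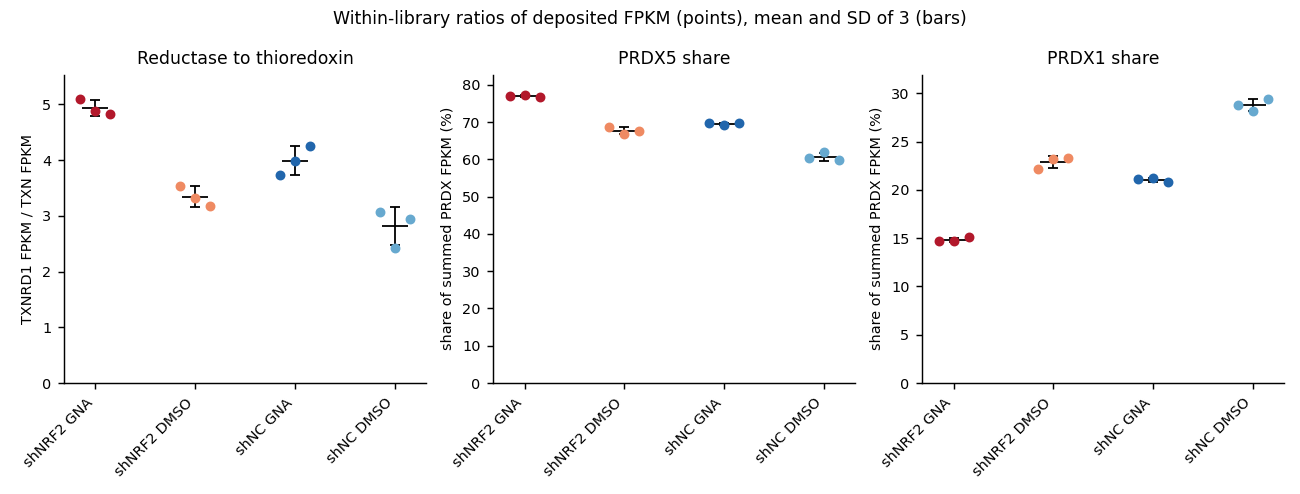
The TXNRD1 to TXN ratio of FPKM, and the PRDX5 and PRDX1 shares (%) of the summed FPKM of the 5 peroxiredoxins listed, without PRDX4. Points are libraries, 1 each, and bars the mean and SD of 3. The ratio and the PRDX5 share are highest in shNRF2 GNA, at 4.93 and 77.0%, and the PRDX1 share is lowest there, at 14.8%.

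Among 7830 tested protein-coding genes averaging at least 10 CPM, those most like a member were named by Pearson correlation of log2(CPM + 1) over the 12 libraries, which share the same 4 groups. TXNRD1 was most like TDP2 (r = 0.996), SPP1 (0.995) and MAP2 (0.991). TDP2 averaged 54 ± 1.8 CPM in shNRF2 GNA, 43.7 ± 1.0 in shNRF2 DMSO, 127 ± 5.4 in shNC GNA and 114 ± 3.1 in shNC DMSO libraries (SD, n = 3 each), the order of TXNRD1. SRXN1 was most like SSNA1 (r = 0.978), STK17A (0.96) and GPC1 (0.957). SSNA1 had 43.6, 63.2 and 58.1 CPM in shNC GNA replicates 1, 2 and 3, and its lowest and highest libraries in that group were those of SRXN1. SSNA1 and TDP2 were picked for likeness over these same 12 libraries, so their matching order is not separate evidence. TXN was most like B2M, IFIT3 (both 0.993) and GPX2 (0.99), and PRDX1 most like KYNU, ATP5PB (both 0.992) and ANXA2 (0.991).

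Of 20 other redox genes (PRDX4, TXNRD3, other thioredoxin-like proteins, glutaredoxins, methionine sulfoxide reductases and antioxidant enzymes), 19 were tested. TXNIP, a thioredoxin inhibitor, failed the filter. The hairpin lowered 9 and raised 0 under GNA, against 13.3% of all tested genes lower and 12.8% higher. In DMSO it lowered 13 and raised 0, against 18.3% lower and 16.8% higher. GLRX, a glutaredoxin, fell most in DMSO (log2 -1.21 ± 0.0554, adjusted p = 1.8e-15), followed by GSR, glutathione reductase (-0.96 ± 0.0598, adjusted p = 1e-12). Under GNA, GLRX and MSRB2, a mitochondrial methionine sulfoxide reductase, each changed by -1.20 (adjusted p = 1.6e-15 and 9e-04).

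GNA raised 4 and lowered 5 of these 19 in shNRF2 cells, against 16.7% and 17% of all tested genes. In shNC cells it raised 1 and lowered 6, against 14.6% and 16.1%. The shNRF2 counts lie near the shares over all genes. Among called genes in shNRF2 cells the largest rises were TXNL1 (0.48) and GLRX2 (0.47) and the largest falls TXNDC17 (-0.49) and TXNDC12 (-0.46), all log2 fold changes. MSRB2 had a larger value there, 0.67, with no call (adjusted p = 0.09). In shNC cells MSRB2 rose by 1.08, and SOD2, the mitochondrial superoxide dismutase, and GLRX5 changed by -0.47 and -0.41. The difference of the responses was called higher for 4 and lower for 0, against 3.58% and 3.24% of all tested genes, with MSRB1 (0.56) and TXNL1 (0.53) the largest called.

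**Figure D5:**
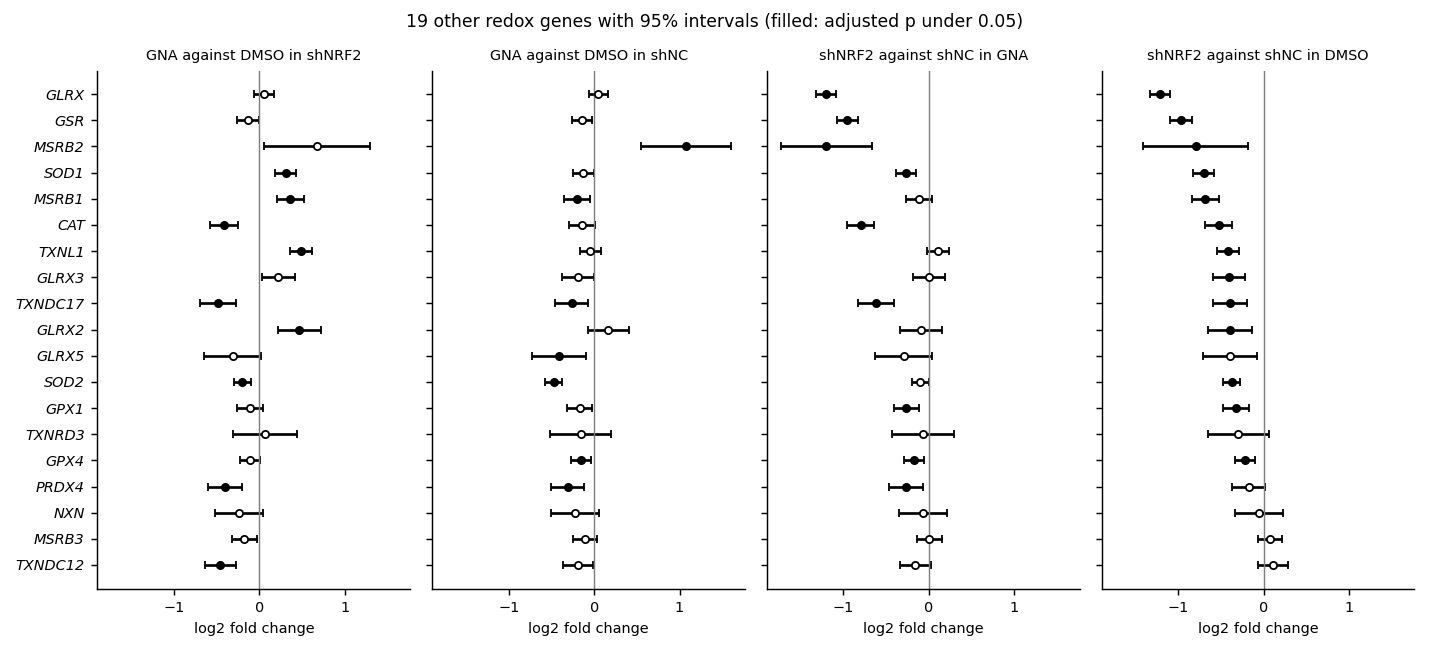
Log2 fold changes of the 19 other tested redox genes with 95% intervals in 4 comparisons, filled where the edgeR adjusted p is under 0.05. Called genes in both hairpin comparisons all lie left of 0, led by GLRX at -1.20 under GNA and -1.21 in DMSO.

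Selenocysteine is the residue that both reductases carry. The 8 genes listed as linked to it were SEPHS2, SEPSECS, PSTK, EEFSEC, SECISBP2, SEPHS1, TRNAU1AP and SCLY. Under GNA the hairpin raised 0 and lowered 0 of these, against 12.8% and 13.3% of all tested genes. There, 2 of 8 had an unadjusted edgeR p under 0.05. In DMSO the hairpin raised 3 and lowered 1, against 16.8% and 18.3%. EEFSEC, the selenocysteine elongation factor, had the largest called change in DMSO (log2 0.85 ± 0.255, adjusted p = 0.011). GNA raised 2 and lowered 1 in shNRF2 cells, against 16.7% and 17% of all tested genes, and raised 3 and lowered 1 in shNC cells, against 14.6% and 16.1%. With 8 genes, each of the counts of 1 or 2 lies near those shares. SEPHS2, which makes the selenium donor, rose most in shNRF2 cells (0.75 ± 0.0815, adjusted p = 3e-08), and PSTK, a kinase of the selenocysteine pathway, in shNC cells (0.48 ± 0.176, adjusted p = 0.04). SEPHS2 was the 1 gene of the list called for the difference of the responses, at 0.45, where 3.58% of all genes were called higher.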

How the data were processed

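RNA sequencing of 12 A549/DDP libraries was deposited by the authors as raw counts and as FPKM, in tables of 61510 gene rows each. Per the submitters' processing notes, the GRCh38 build and DESeq2 were used. Not given in the sources used here are the aligner, the counting tool, its strand setting and the annotation. The authors' FPKM equalled counts over the library total and a fixed gene length within 0.001 for 100% of 9745 genes checked, so they add no independent information.

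Groups were taken from the sample titles. Counts were filtered with filterByExpr (minimum 10, total 15), which left 15653 genes with 99.8% of counts, scaled by TMM, then tested by edgeR 4.0.16 (quasi-likelihood) in R 4.3.3, with 1 coefficient per group. Calls used a Benjamini-Hochberg adjusted p under 0.05 over all tested genes in each of 5 comparisons. The SE is the log2 fold change over the square root of F. The test was tested on simulated data. Alternatives used DESeq2 1.42.0, limma 3.58.1 on log2(FPKM + 1) and log2(FPKM + 0.1), other scalings and filters, a replicate block, only the groups compared, pseudogene rows added and each library left out.

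The members and lists were chosen with earlier results of these data known. All members were named, with the 2 largest called rises and falls of the other redox list, the largest called change of the selenocysteine list and the 3 genes most correlated with each of 4 members. Positions are from GENCODE 29 on GRCh38, and promoter windows from RefSeq on GRCh38.p14. Poisson intervals and floors cover counting error only.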

Additional observations from a re-analysis of the deposited data

How the results depend on the processing

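Of 1026 member results under alternatives, 985 kept their side of the threshold, 30 lost a call and 11 gained one. Some of these alternatives barely touch the data compared. They leave out a library of a group outside the comparison, or add pseudogene rows where a member has none. The sign changed in 0 called results and in 27 that had no call in either fit. Those were the PRDX1 and TXN differences of the responses, PRDX6 with GNA in shNRF2 cells, and TXNRD2 with GNA in shNC cells and with the hairpin in DMSO. Members lowered by GNA in shNC cells numbered 5, against 3 with library totals, 2 with limma on log2(FPKM + 1) and 2 on log2(FPKM + 0.1). Members raised there numbered 2, against 1 with only the groups compared, 3 with library totals and with either limma fit, and 1 to 3 leaving out each library. Members with a lower GNA response in shNRF2 than in shNC cells numbered 0, against 1 with no filter, 1 with the replicate block and 0 to 1 leaving out each library, SRXN1 each time. The cause was not tested.

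Library totals moved the median over all genes to 0.12 in shNC cells, against 0.017 with TMM, and split the calls there into 3543 higher and 1542 lower, against 2284 and 2526. Limma on log2(FPKM + 0.1) gave a median of 0.11 there, with 3096 higher and 1417 lower. The difference of the responses called 561 genes higher and 507 lower, against 274 and 329 with that limma fit. It has no fit with only the groups compared, since it needs all 4. Of 18 same-number pairs of libraries from different groups, 3 deviated together with a correlation over 0.1. Without a count for different-number pairs, this cannot decide whether replicate numbers pair the libraries. With the replicate block, the difference called 479 genes higher and 436 lower. Low counts limit PRDX2, at 0 to 5 counts, and the shNRF2 libraries of SRXN1, at 16 to 27. The cause of these low counts was not tested.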
